A study of Mus musculus with 12 samples.

Results

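The immediate early genes and Nr4a receptors are 10 genes chosen by name (Fos, Fosb, Jun, Junb, Egr1, Atf3, Ier3, Nr4a1, Nr4a2 and Nr4a3) out of 18193 genes measured, and they were read through 18 of the 45101 probe sets of the Affymetrix mouse genome array, each annotated to 1 of these genes alone. Fos, Fosb, Junb, Egr1, Atf3, Ier3 and Nr4a1 had 1 probe set each, Jun had 2, Nr4a3 had 3 and Nr4a2 had 6. All 10 genes were tested, with no filter on low values. The choice did not use measured values of the arrays, although it was made with earlier results of these data known.

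Type II alveolar cells, which make the lung's surfactant, were taken from mouse lungs and kept 7 days on collagen-coated plastic in a bronchial epithelial medium lacking hydrocortisone and supplemented with keratinocyte growth factor, and were not treated further. Of the 4 genotype groups of 3 arrays each, Gnaq/Gna11 ko cells lacked the alpha subunits of Gq and G11 and were set against Gna11 ko cells, which lacked G11 alone. Gna12/Gna13 ko cells lacked those of G12 and G13 and were set against Gna12 ko cells, which lacked G12 alone. No group was wild type, so every comparison is between cells that already lack at least 1 of these subunits, and the labels give neither the age of the mice nor the promoter or Cre line behind the deletions. Whether the 3 arrays of a group stem from different animals or cultures is not in the labels, and the p-values therefore weigh a difference only against the scatter of these arrays, part of which may be technical.

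Immediate early genes are transcribed within minutes of a stimulus without new protein synthesis, through kinase cascades and calcium that act on transcription factors already present at their promoters. Fos and Jun proteins pair to form AP-1, Egr1 is a zinc finger factor downstream of ERK, and the Nr4a genes encode orphan nuclear receptors that bind DNA without a known hormone and are induced by calcium and cyclic AMP. Gq/11 act through phospholipase C and calcium and G12/13 through RhoA, and both routes can feed these genes.

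The promoters of the 3 Nr4a genes and of Fos are shown because of the factor CREB, which cyclic AMP and calcium activate. CREB binds the letters TGACG, the half-site of the cyclic AMP response element. The Nr4a windows hold more of these letters than those of the other members searched. The windows run from 250 bases before to 50 after the annotated start, are given 5′ to 3′ on the gene's strand from the RefSeq annotation of GRCm38.p6, and capitals mark TGACG or its reverse complement CGTCA. The Nr4a1 window is chr15:101266596-101266895 on the + strand, Nr4a2 chr2:57123954-57124253 on the - strand, Nr4a3 chr4:48045055-48045354 on the + strand and Fos chr12:85473640-85473939 on the + strand.
Nr4a1: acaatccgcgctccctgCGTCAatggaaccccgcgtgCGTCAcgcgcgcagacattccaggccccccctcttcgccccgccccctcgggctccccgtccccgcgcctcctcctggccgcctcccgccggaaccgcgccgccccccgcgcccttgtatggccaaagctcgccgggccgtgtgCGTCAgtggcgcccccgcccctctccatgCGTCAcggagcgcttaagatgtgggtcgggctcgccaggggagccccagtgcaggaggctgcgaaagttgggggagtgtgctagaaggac
Nr4a2: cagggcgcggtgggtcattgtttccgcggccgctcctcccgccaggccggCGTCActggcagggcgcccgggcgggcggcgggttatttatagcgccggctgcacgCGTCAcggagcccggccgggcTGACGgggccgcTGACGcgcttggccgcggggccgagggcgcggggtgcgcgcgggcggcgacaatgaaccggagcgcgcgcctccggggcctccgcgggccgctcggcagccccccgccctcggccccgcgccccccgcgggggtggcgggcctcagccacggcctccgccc
Nr4a3: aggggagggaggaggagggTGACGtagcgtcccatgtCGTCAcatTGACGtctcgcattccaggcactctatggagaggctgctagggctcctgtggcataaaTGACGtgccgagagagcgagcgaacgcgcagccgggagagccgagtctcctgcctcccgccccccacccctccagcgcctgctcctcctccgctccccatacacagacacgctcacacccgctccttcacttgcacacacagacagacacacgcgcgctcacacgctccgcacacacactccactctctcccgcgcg
Fos: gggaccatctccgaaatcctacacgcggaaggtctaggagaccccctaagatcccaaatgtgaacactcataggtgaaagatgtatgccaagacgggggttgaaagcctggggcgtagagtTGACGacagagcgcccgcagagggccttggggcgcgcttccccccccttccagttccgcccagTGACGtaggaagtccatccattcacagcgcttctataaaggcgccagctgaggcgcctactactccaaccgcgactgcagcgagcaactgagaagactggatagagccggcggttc
Nr4a1, Nr4a2 and Nr4a3 each held 4 half-sites and Fos held 2, counted on both strands. Fosb, Junb and Atf3 held 1 each and Jun and Ier3 none, over the 9 of 10 members searched (all but Egr1, whose promoter was not searched). Of 32851 promoter windows of this length, 20.8% held at least 1 half-site, 5.01% at least 2 and 0.231% at least 4. The full element TGACGTCA (1.79% of windows) and the AP-1 site TGANTCA (7.81%) were in none of the 9 windows. Nor were the Nr4a response element AAAGGTCA (1.51%) and the CArG box bound by serum response factor (1.63%). This says only that these letters are not in these windows, and nothing about Egr1, which was left out of the search. Each motif was searched on both strands. A full element counts as 2 half-sites, so the windows holding one are among those with at least 2. The matches describe the sequence and are not sites of measured binding.

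The arrays differed in more than genotype. At least 1 probe set of each targeted gene lay lower in every array lacking the gene than in all other arrays, namely 1 of 7 for Gnaq (difference -1.23), 1 of 2 for Gna11 (-1.11), 1 of 5 for Gna12 (-0.31) and 1 of 7 for Gna13 (-1.04). The other probe sets overlapped, and the highest difference of any was 0.03, 0.13, 0.28 and 0.07 in the same order. The array medians ran over 5.032 to 5.11, and all 11 measured type II cell markers were at or above the median probe set. So were 19 of 20 pan-leukocyte, 12 of 12 macrophage, 7 of 10 fibroblast and 7 of 8 endothelial markers. No array value was 0 (the lowest was 2.13). Replicate 2 of the Gna11 ko arrays stood apart, with the highest score on the second principal component (73.07, against 20.84 or less in the other Gna11 ko arrays) and the lowest array weight (0.489). The Y-linked gene Eif2s3y was low (3.56 or less) in all 3 Gnaq/Gna11 ko arrays and in replicate 2 of each other group, and at 6.91 or more in the rest. In the 3 groups other than Gnaq/Gna11 ko, replicate 2 is therefore no technical repeat of replicates 1 and 3. Low Eif2s3y is also partly confounded with genotype in every comparison that uses the Gnaq/Gna11 ko arrays, and no fit adjusted for it. Besides the comparison with Gna11 ko arrays, this holds for arrays lacking Gna12 against arrays lacking Gna11. It also holds for the difference between the 2 comparisons of a double with a single knockout. A position code in the labels has 1 number for both groups lacking Gna11 and another for both lacking Gna12, and its letters separate the double from the single knockouts, so position and genotype cannot be told apart.

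**Figure D1:**
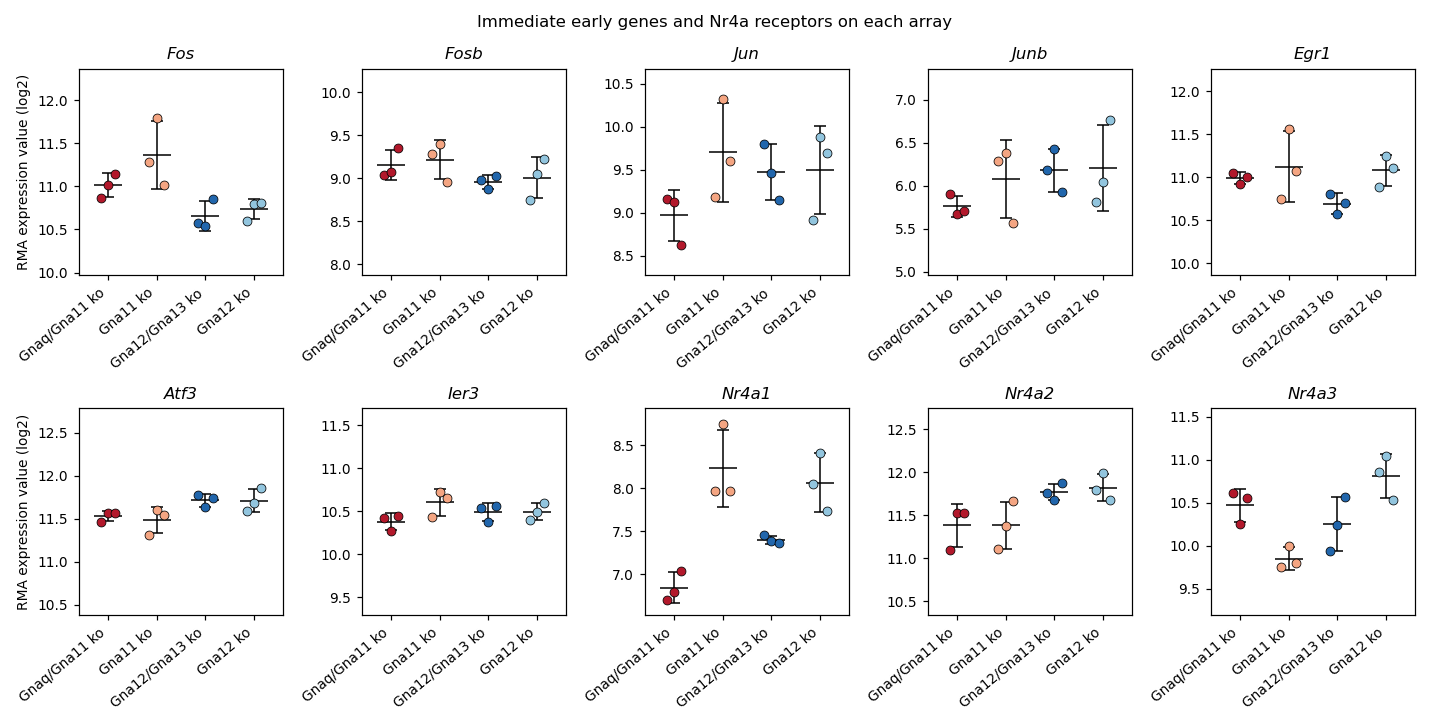
RMA expression value (log2) of the 10 members on each of the 12 arrays, with the 4 genotype groups on the horizontal axis, 1 point per array in order of replicate, and a bar for the group mean ± SD (n = 3). Nr4a1 is at 6.70 to 7.04 in Gnaq/Gna11 ko arrays, below the 7.97 to 8.75 of the Gna11 ko arrays, and every panel spans the same range of log2 units.

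Cells lacking Gnaq besides Gna11 differed in Nr4a1. Of the 10 members 1 fell and none rose between Gnaq/Gna11 ko and Gna11 ko cells at an adjusted p under 0.05 (limma, Benjamini-Hochberg over 18193 genes), where 0.676% of all genes fell and 1.17% rose. For 3 members (Jun, Nr4a1 and Nr4a3) the 2 sets of arrays did not overlap, as for 19.7% of all genes. The difference was below 0 for 7 of 10 members, as for 54.6% of all genes. The median difference of the members was -0.18, against -0.03 over all genes, on the log2 scale.

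Nr4a1 encodes Nur77, the Nr4a receptor also known as a regulator of T cell and macrophage responses. Its value was 6.70, 6.79 and 7.04 in the 3 Gnaq/Gna11 ko arrays, against 7.97, 8.75 and 7.97 in the Gna11 ko arrays. All 3 Gnaq/Gna11 ko arrays lay below every other array of the study for this gene. The group means were 6.85 ± 0.175 and 8.23 ± 0.448 (SD, n = 3 each), and Nr4a1 fell by 1.39 ± 0.249 (SE) on the log2 scale, 2.61-fold, with a 95% interval of -1.93 to -0.84 (limma adjusted p = 0.0221). Over the 4 groups the order was Gnaq/Gna11 ko, Gna12/Gna13 ko (7.40), Gna12 ko (8.07) and Gna11 ko, and the arrays of the last 2 groups overlap. Replicate 2 of the Gna11 ko arrays was the highest, at 8.75, and without it the difference was -1.13.

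The call depended on the arrays used. Leaving out Gnaq/Gna11 ko replicate 1, 2 or 3 gave limma adjusted p-values of 0.0614, 0.0808 and 0.0561, at differences of -1.32, -1.36 and -1.48. Leukocyte genes and a Gapdh control measure moved with the same comparison. The mean of the 20 pan-leukocyte markers ranged from 9.01 to 9.06 in Gnaq/Gna11 ko arrays and 7.94 to 8.66 in Gna11 ko arrays, with 19 of 20 markers higher and 1 of them called. The mean of the macrophage markers was 9.75 ± 0.0396 in Gnaq/Gna11 ko arrays and 8.47 ± 0.374 in Gna11 ko arrays, with 4 of 12 called higher, and of the 10 fibroblast markers 2 were called higher. Gapdh control probe sets near both ends of the transcript compare its 3′ with its 5′ signal. On arrays of amplified RNA they do not separate shortened RNA from effects of the amplification. The 3′ value exceeded the 5′ value by 3.01 to 3.26 in Gnaq/Gna11 ko arrays and by 3.46 to 4.03 in Gna11 ko arrays. Adjusted for the pan-leukocyte mean the Nr4a1 difference was -1.26 (limma adjusted p = 0.33), and adjusted for the Gapdh difference it was -1.70 (0.129). Most of all genes called in this comparison also lost their call under either adjustment, with the counts given below, so this loss is not particular to Nr4a1. In bulk samples, fewer cells of a type and less RNA per cell cannot be told apart, and the part of these cells in the members' values was not tested.

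Among the arrays with a low Eif2s3y, Nr4a1 was at 6.70 to 7.04 in the 3 Gnaq/Gna11 ko arrays, and at 8.75, 7.38 and 8.41 in replicate 2 of the Gna11 ko, Gna12/Gna13 ko and Gna12 ko groups.

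Nr4a3 encodes NOR-1, which shares its DNA-binding site with Nur77. It lay on the other side of 0: 10.61, 10.25 and 10.55 in Gnaq/Gna11 ko arrays, against 9.75, 10.00 and 9.80 in Gna11 ko arrays. The 2 groups did not overlap. The difference was 0.62 ± 0.183 (SE), with a 95% interval of 0.22 to 1.02, and missed the threshold (limma adjusted p = 0.125). Its 2 other probe sets gave -0.20 (95% interval -0.53 to 0.13) and -0.03 (-0.77 to 0.71), so the direction rested on 1 of 3 probe sets. These 2 had low means over the 12 arrays, 5.73 and 3.50, against 10.35 for the one used. The median of all non-control probe sets was 5.078, so they can show little of a direction. Across the 12 arrays the Nr4a3 value had a correlation of 0.82 with the pan-leukocyte mean and of -0.84 with the Gapdh difference, both as a description over arrays that share groups, and the part of either in Nr4a3 was not tested.

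Nr4a2, which encodes Nurr1, was at 11.09, 11.52 and 11.53 in Gnaq/Gna11 ko arrays and at 11.11, 11.37 and 11.66 in Gna11 ko arrays. The ranges overlap almost fully. The difference was 0.00, with a 95% interval of -0.33 to 0.33. Of its 6 probe sets, 1 with a low spread was lower in Gnaq/Gna11 ko arrays without overlap, at 6.99 ± 0.138 in Gnaq/Gna11 ko arrays and 7.25 ± 0.0245 in Gna11 ko arrays (SD, n = 3 each), and its difference of -0.26 did not pass over all probe sets (limma adjusted p = 0.587).

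**Figure D2:**
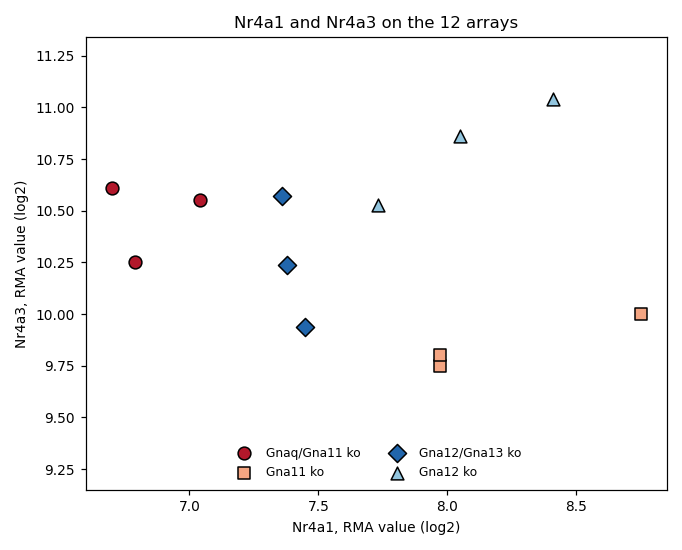
Nr4a1 (horizontal axis) and Nr4a3 (vertical axis), both as RMA values on the log2 scale, 1 point per array, with colour and symbol for the genotype group. The 3 Gnaq/Gna11 ko arrays sit at the left at a Nr4a3 value of 10.25 or more, and the 3 Gna11 ko arrays at the right at 10.00 or less.

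None of the AP-1 genes passed in the same comparison. Jun, the partner that most AP-1 dimers contain, was at 9.16, 9.12 and 8.63 in Gnaq/Gna11 ko arrays, against 9.18, 10.32 and 9.60 in Gna11 ko arrays. The groups did not overlap, but replicate 1 of both groups had nearly the same value and replicate 2 of Gna11 ko was the highest of the 12 arrays. The difference was -0.73 ± 0.327 (SE), with an interval of -1.45 to -0.01 (limma adjusted p = 0.303), and was -0.42 without Gna11 ko replicate 2. A second Jun probe set was at 7.50, 6.98 and 7.80 in Gnaq/Gna11 ko arrays and at 8.04, 8.33 and 8.49 in Gna11 ko arrays, a difference of -0.86 ± 0.254 (limma adjusted p = 0.169 over all probe sets), so both Jun probe sets were lower without overlap and neither passed.

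Fos, the Jun partner that gives AP-1 its inducible activity, was at 10.87, 11.02 and 11.15 in Gnaq/Gna11 ko arrays and at 11.29, 11.80 and 11.02 in Gna11 ko arrays. Replicate 3 of Gna11 ko lay inside the Gnaq/Gna11 ko range, and the difference of -0.36 had an interval of -0.74 to 0.03. It was -0.14 without Gna11 ko replicate 2. Fosb, a Fos relative, differed by -0.06 (-0.45 to 0.33) and Junb, a Jun relative with weaker activity, by -0.32 (-0.93 to 0.29).

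Egr1 differed by -0.13 (95% interval -0.51 to 0.25) and Atf3, a stress-induced factor of the ATF family, by 0.05 (-0.15 to 0.25). Ier3, an immediate early gene that protects cells from apoptosis, was 0.23 lower (-0.47 to 0.02). None of the 3 passed (limma adjusted p = 0.767, 0.841 and 0.355 in the order given).

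**Figure D3:**
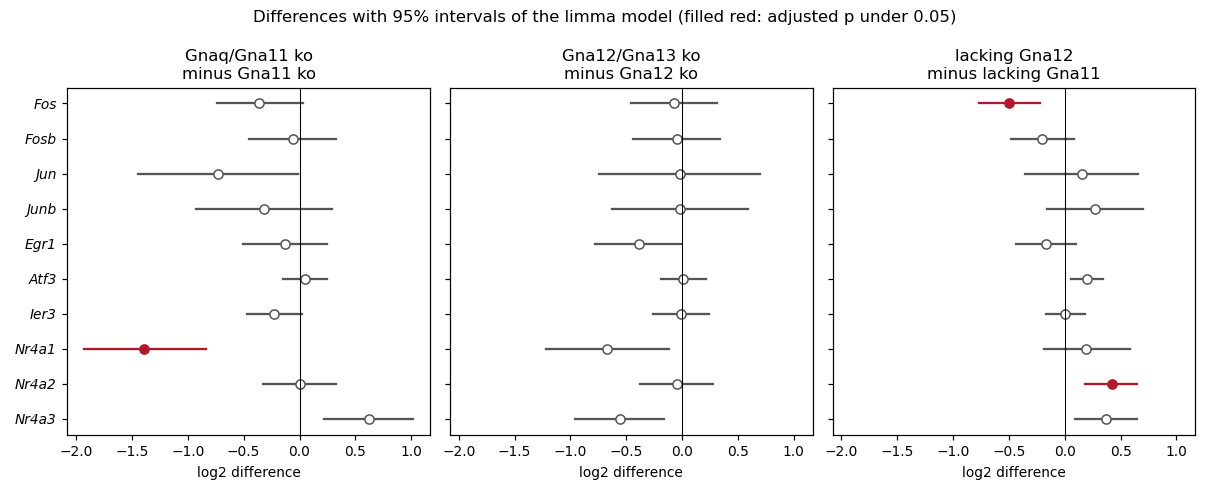
Log2 difference (horizontal axis) of the 10 members in 3 comparisons with the 95% interval of the limma model, filled red where the adjusted p was under 0.05. In Gnaq/Gna11 ko minus Gna11 ko cells Nr4a1 alone is filled, at -1.39, none is filled in Gna12/Gna13 ko minus Gna12 ko cells, and Fos (-0.50) and Nr4a2 (0.42) are filled in the comparison of the 6 arrays lacking Gna12 with the 6 lacking Gna11.

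Losing Gna13 besides Gna12 gave no call, in the members or in any gene. Of 18193 genes 0% were called between Gna12/Gna13 ko and Gna12 ko cells, with a smallest limma adjusted p of 0.128, while 4.51% had an unadjusted p under 0.05. Of the 10 members 3 (Nr4a1, Nr4a3 and Egr1) were among these. The arrays were without overlap for 2 of 10 members (Egr1 and Nr4a1), against 11.3% of all genes, and the difference was below 0 for 9 of 10, against 50.1%. Nr4a1 was at 7.45, 7.38 and 7.36 in Gna12/Gna13 ko arrays and at 8.05, 8.41 and 7.73 in Gna12 ko arrays, a difference of -0.67 ± 0.249 (SE; 95% interval -1.22 to -0.12; limma adjusted p = 1). All 3 Gna12/Gna13 ko arrays lay below the Gna12 ko arrays, with a spread of 0.0443 (SD) against 0.341 in Gna12 ko arrays.

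Nr4a3 was at 9.94, 10.24 and 10.57 in Gna12/Gna13 ko arrays, against 10.86, 11.04 and 10.53 in Gna12 ko arrays. Replicate 3 of both groups overlaps, and the difference was -0.56 ± 0.183 (95% interval -0.96 to -0.16; limma adjusted p = 1). Egr1 was at 10.81, 10.57 and 10.70 in Gna12/Gna13 ko arrays, against 10.89, 11.25 and 11.11 in Gna12 ko arrays. Its groups did not overlap, and its difference was -0.39 ± 0.174 (-0.78 to -0.01; limma adjusted p = 1). Nr4a2 differed by -0.05 (95% interval -0.38 to 0.28). Fos, Fosb, Jun, Junb, Atf3 and Ier3 had differences between -0.07 and 0.01, the widest interval being that of Jun, -0.74 to 0.70. With 3 arrays against 3, an exact permutation test of a single gene could not go below p = 0.1, so none is given.

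Nr4a3 thus had opposite signs in the 2 comparisons of a double with a single knockout. The difference between the 2 differences was -1.18 ± 0.258 (SE), with a 95% interval of -1.75 to -0.62. It was number 125 of 18193 genes by p and missed the threshold (limma adjusted p = 0.11), and 0.0715% of all genes were called. The pan-leukocyte markers had medians of 0.67 in the Gnaq/Gna11 comparison and -0.27 in the Gna12/Gna13 comparison, and the part of this in Nr4a3 was not tested. The Nr4a3 value was -0.79 after adjustment for the pan-leukocyte mean (limma adjusted p = 0.836) and -0.48 as the mean of its 3 probe sets (0.576). That mean includes the 2 probe sets of low level (5.73 and 3.50). For Nr4a1 the difference between the differences was 0.72 ± 0.352 (adjusted p = 0.505), so a larger fall on loss of Gnaq than of Gna13 was not shown.

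Arrays lacking Gna12 were set against arrays lacking Gna11, 6 against 6, whatever the second deletion. Fos fell and Nr4a2 rose in the 6 arrays lacking Gna12, 1 of 10 members each, where 5.86% of all genes fell and 6.48% rose. Both were without overlap between the 2 sets of arrays, as for 5.74% of all genes. The median difference of the members was 0.17, against -0.05 over all genes.

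Fos was at 10.57, 10.54 and 10.86 in Gna12/Gna13 ko and 10.60, 10.80 and 10.81 in Gna12 ko arrays, against 10.87, 11.02 and 11.15 in Gnaq/Gna11 ko and 11.29, 11.80 and 11.02 in Gna11 ko arrays. The highest array lacking Gna12 (10.86) lay just below the lowest array lacking Gna11 (10.87). The means were 10.70 ± 0.141 and 11.19 ± 0.331 (SD, n = 6 each), and Fos fell by 0.50 ± 0.125 (SE), 1.41-fold (limma adjusted p = 0.0272). Fosb, which has 1 probe set, lay 0.20 lower (95% interval -0.48 to 0.08) and did not pass.

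Nr4a2 was at 11.76, 11.68 and 11.87 in Gna12/Gna13 ko and 11.79, 11.99 and 11.68 in Gna12 ko arrays, against 11.09, 11.52 and 11.53 in Gnaq/Gna11 ko and 11.11, 11.37 and 11.66 in Gna11 ko arrays. Its means were 11.79 ± 0.118 and 11.38 ± 0.233 (SD, n = 6 each), and Nr4a2 rose by 0.42 ± 0.107 (SE), 1.33-fold (limma adjusted p = 0.0293). The 5 other Nr4a2 probe sets gave 0.56, 0.32, 0.24, 0.10 and -0.04, none passing over all probe sets, and their mean with the first gave 0.27 (adjusted p = 0.0945). Correlations over the 12 arrays between the probe set used and the others ran between -0.01 and 0.77, so the 6 probe sets do not measure Nr4a2 alike. The call also did not hold in 7 of 12 fits that left out 1 array, with adjusted p-values of 0.0562 without Gna11 ko replicate 1 and 0.0537 without Gnaq/Gna11 ko replicate 1. They were 0.0556 and 0.0709 without Gna12 ko replicates 1 and 2, and 0.05, 0.0542 and 0.0615 without Gna12/Gna13 ko replicates 1, 2 and 3. For Fos 6 of 12 did not hold, with adjusted p-values of 0.0555 and 0.061 without Gnaq/Gna11 ko replicates 2 and 3, 0.0612 and 0.0521 without Gna12 ko replicates 1 and 2, and 0.0526 and 0.0682 without Gna12/Gna13 ko replicates 1 and 2.

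Nr4a3 was 0.37 ± 0.129 (SE) higher in arrays lacking Gna12 (adjusted p = 0.0832) and Atf3 0.20 ± 0.0644 higher (adjusted p = 0.063), and neither passed, although without Gna12/Gna13 ko replicate 1 (0.0457) and Gna11 ko replicate 2 (0.0468) they did. Jun differed in sign between its 2 probe sets, at 0.15 ± 0.231 and -0.52 ± 0.179. The differences of Egr1 (-0.17), Junb (0.27), Nr4a1 (0.19) and Ier3 (0.00) did not pass either. The pan-leukocyte mean was 8.72 to 9.58 in Gna12/Gna13 ko and 9.19 to 9.72 in Gna12 ko arrays, against 9.01 to 9.06 in Gnaq/Gna11 ko and 7.94 to 8.66 in Gna11 ko arrays, and 9 of 20 pan-leukocyte markers rose. Of 12 macrophage markers 2 rose, of 10 fibroblast markers 2 fell and of 11 type II cell markers 6 fell. The Gapdh 3′ value exceeded the 5′ value by 2.99 to 3.33 in Gna12/Gna13 ko and 2.67 to 3.25 in Gna12 ko arrays, against 3.01 to 3.26 in Gnaq/Gna11 ko and 3.46 to 4.03 in Gna11 ko arrays. Over the 12 arrays this Gapdh difference had a correlation of 0.61 with Fos and of -0.59 with Nr4a2. For the pan-leukocyte mean the correlations were -0.77 with Fos and 0.66 with Nr4a2. For the mean of the type II cell markers they were 0.60 and -0.74. All are given as a description. After adjustment for the pan-leukocyte mean Fos was at -0.31 (limma adjusted p = 0.564) and Nr4a2 at 0.25 (0.589). After adjustment for the Gapdh difference Fos was at -0.48 (0.22) and Nr4a2 at 0.27 (0.333). Neither gene passed under either adjustment, but few genes did. With the pan-leukocyte mean 0.044% of all genes rose and 0.148% fell, and with the Gapdh difference 0.341% rose and 0.462% fell. The part of these cells, or of what the Gapdh difference measures, in either gene was not tested.

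**Figure D4:**
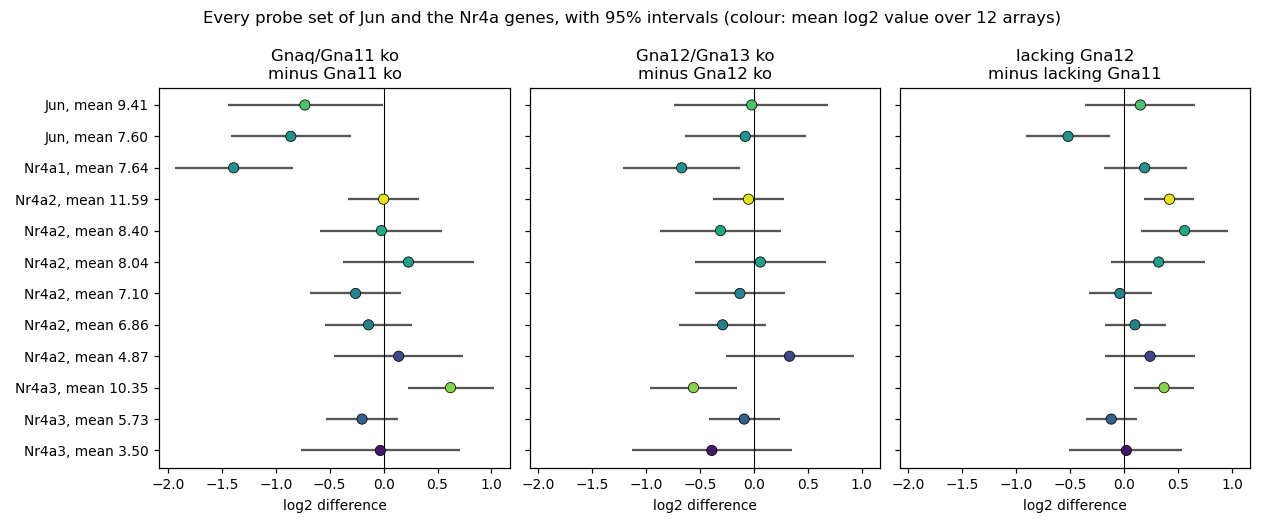
Log2 difference (horizontal axis) of every probe set of Jun, Nr4a1, Nr4a2 and Nr4a3 in 3 comparisons with 95% intervals from the fit over all probe sets, coloured and named by the mean log2 value over 12 arrays. The first Nr4a3 row lies above 0 in Gnaq/Gna11 ko cells (0.62) and below 0 in Gna12/Gna13 ko cells (-0.56), whereas the Nr4a3 row of mean 5.73 lies at -0.20 and -0.09.

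Genes that regulate or follow the members were described with 6 lists of 124 measured genes, chosen with earlier results known. In Gnaq/Gna11 ko against Gna11 ko cells no list gene passed, where 1.84% of all genes did. Fosl1, which encodes the AP-1 partner Fra-1, was at -0.50 ± 0.158 (SE; adjusted p = 0.145), with 10.57, 10.10 and 10.62 in Gnaq/Gna11 ko arrays and 11.02, 10.79 and 11.00 in Gna11 ko arrays, and the groups did not overlap. Cxcl1, a chemokine of the immediate early response, was at 0.84 ± 0.223 (adjusted p = 0.0885), without overlap. Crem, a CREB family repressor and activator gene, was at 1.89 ± 0.499 (adjusted p = 0.0895), with 9.97, 9.54 and 9.49 in Gnaq/Gna11 ko arrays and 8.59, 6.37 and 8.37 in Gna11 ko arrays, where 6.37 is replicate 2, without which the difference was 1.18. Atf6, an endoplasmic reticulum stress factor, was at -0.83 ± 0.199 (adjusted p = 0.0615). Of the feedback inhibitors, Spred1 was at 0.68, Dusp8 at -0.58 and Dusp16 at -0.49, and of the Nr4a partners Nr2f2 was at -0.69, Ncoa2 at -0.59 and Nr2c1 at -0.38. The further genes of largest difference were Egr2 (-0.96) and the kinase gene Sik1 (-0.82) among the immediate early genes, Creb1 (-1.60) and Nfatc2 (0.96) upstream, Batf3 (0.34) and Maff (-0.22) among the AP-1 genes, and Atf5 (0.58) and Creb3l2 (-0.45) among the ATF and CREB genes. Creb1 was at 4.60, 8.27 and 7.25 in Gnaq/Gna11 ko arrays and 8.52, 8.50 and 7.92 in Gna11 ko arrays, and without Gnaq/Gna11 ko replicate 1 its difference was -0.55. Leaving out 1 array also moved Sik1 (to -0.50), Maff (-0.07), Atf5 (0.37), Creb3l2 (-0.13), Nr2f2 (-0.37), Ncoa2 (-0.34) and Nr2c1 (-0.20) by over 1.5 times, the value nearest 0 being given for each, and turned no sign. The medians of the 6 lists lay between -0.17 and -0.01, against -0.03 over all genes. In Gna12/Gna13 ko against Gna12 ko cells, and in the difference of the differences, no list gene passed either.

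In arrays lacking Gna12 against arrays lacking Gna11, 22 of the 124 genes rose (17.7%, against 6.48% of all genes) and 4 fell (3.23%, against 5.86%). Of 41 other immediate early genes 11 rose and 1 fell. Klf10, a zinc finger gene induced by TGF-beta, was at 7.07, 7.32 and 7.16 in Gna12/Gna13 ko and 6.35, 6.58 and 7.25 in Gna12 ko arrays, against 5.33, 5.40 and 5.38 in Gnaq/Gna11 ko and 4.83, 4.64 and 5.44 in Gna11 ko arrays. It rose by 1.79 ± 0.178 (SE), 3.45-fold (limma adjusted p = 0.000376), without overlap. Arc, whose product sits at synapses in neurons, rose by 1.05 ± 0.135, Egr2, a relative of Egr1, by 1.07 ± 0.268, and Tnfaip3, which encodes the NF-kappaB inhibitor A20, by 0.98 ± 0.165. Ccn1, a secreted matrix protein gene named after its values were seen, fell by 0.42 ± 0.0949. The groups of 6 arrays averaged 6.85 ± 0.238 and 5.80 ± 0.290 for Arc and 8.01 ± 0.503 and 6.94 ± 0.728 for Egr2, in arrays lacking Gna12 and in arrays lacking Gna11 (SD).

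The AP-1 relatives Mafg (0.97 ± 0.113), Mafk (0.60 ± 0.139), Fosl1 (0.57 ± 0.112) and Fosl2 (0.46 ± 0.107) rose, 4 of 11 other AP-1 genes, with no fall, whereas the member Fos fell. Of 19 feedback inhibitors, Nab1, a corepressor of Egr factors (1.08 ± 0.152), and Dusp16, a kinase phosphatase (0.55 ± 0.131), rose, and Spry1, an inhibitor of growth factor receptor signalling (-0.80 ± 0.136), fell. Of 28 upstream genes the ternary complex factor Elk3 (1.30 ± 0.326), the calcium-regulated factor Nfatc1 (0.77 ± 0.217) and the kinase Mapk8 (0.66 ± 0.153) rose, and of 11 ATF and CREB genes Atf4 (0.23 ± 0.0625). Of 14 Nr4a partners and coregulators the histone demethylase Kdm1a rose (1.30 ± 0.214) and the orphan receptor Nr2c1 (-0.62 ± 0.169) and the coactivator Ncoa1 (-0.40 ± 0.0949) fell. After adjustment for the pan-leukocyte mean 0 of the 124 genes were called, where 0.044% of all genes rose and 0.148% fell. After adjustment for the Gapdh difference 4 list genes rose (3.23%) and none fell, where 0.341% of all genes rose and 0.462% fell. Without Gna11 ko replicate 2, 25 list genes rose (20.2%) and 3 fell (2.42%), where 6.27% of all genes rose and 5.38% fell. The use of these 3 alternatives for the lists, and of single arrays left out for the list genes named, was chosen after the data had been seen.

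**Figure D5:**
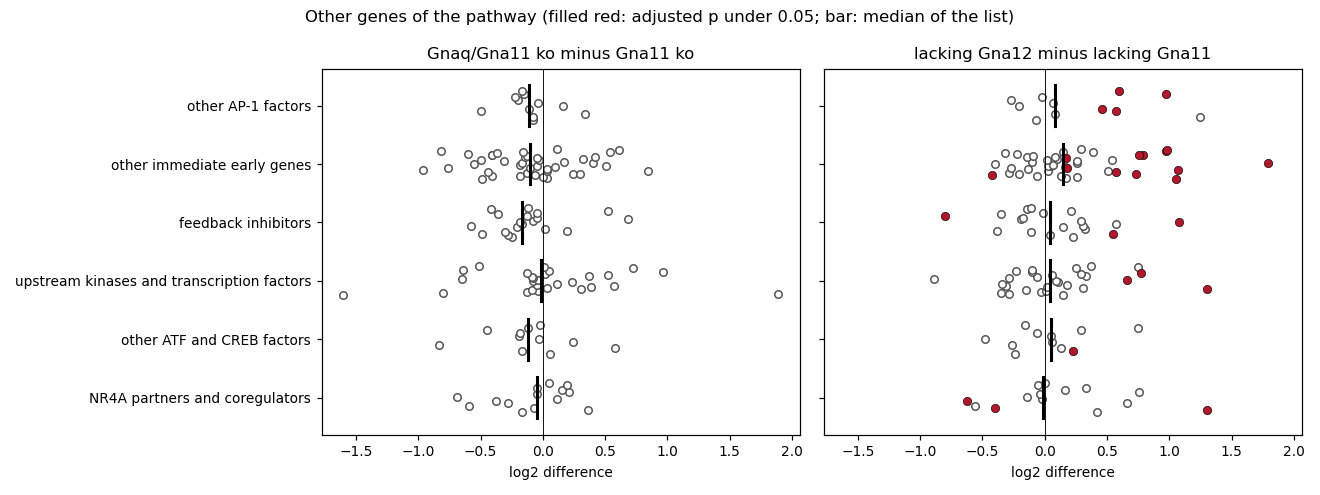
Log2 difference (horizontal axis) of each measured gene of 6 lists, filled red where the adjusted p was under 0.05, with a bar for the median of the list. None is filled in Gnaq/Gna11 ko minus Gna11 ko cells (left), and 22 of 124 rose and 4 fell in arrays lacking Gna12 minus arrays lacking Gna11 (right).

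Likeness was measured against the 11499 genes whose mean reached the median probe set. Those most like Nr4a1 across the 12 arrays by Pearson correlation were Phf21a (0.93), Rbp4 (0.91), Myo15b (0.90), Itpr2 (0.89) and Slc6a13 (0.89). Those most like Fos were Tas1r3 (0.95), Mapk8ip2 (0.95), Crabp2 (0.94), Pam16 (0.93) and Nudt18 (0.93). The 12 points of each correlation share genotype groups, so these values describe likeness only. The Nr4a1 value had a correlation of 0.88 with the second principal component, on which Gna11 ko replicate 2 was highest.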

How the data were processed

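Expression was measured on 12 one-colour Affymetrix arrays, 4 genotypes of 3. The authors deposited 1 RMA value for each probe set, on a scale read here as log2 (RMA is named in the submitters' processing notes). The sources used here do not give its version, its settings or the log base; base 2 was taken because RMA gives it and the values run from 2.13 to 14.06. The labels give the amplification of 10 ng of RNA before hybridisation. Of 45037 non-control probe sets, 34945 named 1 gene, 932 several and 9160 none, and symbols were updated through the RefSeq gene table of GRCm38.p6 for 34741 of the 34945. For each of the 18193 genes the single-gene probe set of the highest mean was used.

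All 12 arrays entered 1 linear model of the 4 group means (limma 3.58.1 under R 4.3.3, lmFit then eBayes with trend), which left 8 residual degrees of freedom, with a prior of 3.19. Tests were two-sided, with Benjamini-Hochberg adjustment over 18193 genes and a threshold of 0.05, and probe sets were tested in a separate fit over 45037. The fit of Gnaq/Gna11 ko minus Gna11 ko was tested on simulated data with known changes. The number of arrays limits the precision.

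Members and gene lists were chosen with earlier results of these data known. The genes named are the 10 members, up to 4 called genes of each list by size (3 where none was called) and the 5 most like Nr4a1 and Fos. Listed genes with no single-gene probe set were not analysed here. Alternatives were other probe set summaries, priors, weights and filters, the replicate number as a block, 2 covariates and each array left out.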

Additional observations from a re-analysis of the deposited data

How the results depend on the processing

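Over 40 differences of the members, 725 of 820 values under alternatives kept their direction and side of the threshold, 24 were no longer called, 3 were newly called and 68 had the opposite sign, 50 of these by up to 1 SE. Nr4a1 in Gnaq/Gna11 ko minus Gna11 ko cells stayed between -1.70 and -1.13 and was called in 15 of 21. The counts of genes called in that comparison (335) were 174 with array weights, 139 with only its 2 groups, 24 with the pan-leukocyte mean and 3 with the Gapdh difference as a covariate, and 102 to 381 with 1 array left out. In Gna12/Gna13 ko minus Gna12 ko cells they were 0 to 3 with 1 array left out. For the difference of the differences (13) they were 35 with mean probe sets, 22 without the trend, 28 with weights, 36 above the median level, 1 and 0 with the pan-leukocyte and Gapdh covariates, and 0 to 40 with 1 array left out. For arrays lacking Gna12 minus arrays lacking Gna11 (2244) they were 3399 over all probe sets, 35 and 146 with the covariates, and 1114 to 2313 with 1 array left out. Opposite signs by over 1 SE, none called, came with the pan-leukocyte mean in the first comparison (Fosb 0.16, Junb 0.20, Egr1 0.11, Nr4a2 -0.17), in the difference of the differences (Fosb -0.31, Jun -0.08, Junb -0.45, Nr4a2 0.19) and in the last (Fosb 0.02, Egr1 0.06). With the Gapdh difference they were Junb 0.03 and Nr4a2 -0.23 in the first, and Junb -0.15, Egr1 0.04 and Nr4a2 0.25 in the difference of the differences. Jun in the last was -0.19 with mean probe sets, and with 1 array left out Egr1 in the first ran from -0.32 to 0.09 and Junb in the second from -0.22 to 0.25; the cause was not tested. The labels do not say that replicate numbers pair samples. Same-numbered arrays did not all deviate together. Their correlations of deviations were 0.00, 0.03 and 0.05 between the groups lacking Gna11, and -0.01, 0.20 and 0.16 between those lacking Gna12. Different-numbered arrays ran from -0.05 to 0.02 in the former and from -0.22 to 0.05 in the latter. Whether the numbers pair samples is therefore not settled, and no pairing was used. With the replicate block 309, 0, 16 and 2357 genes were called in the 4 comparisons.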

Other observations

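Within groups, after the group means were taken off, the values of Fos and Fosb moved together over the 12 arrays (correlation 0.79), as did Atf3 and Ier3 (0.82), Jun and Egr1 (0.82), Egr1 and Ier3 (0.77) and Nr4a1 and Egr1 (0.72). These were the highest of all pairs of members. Other pairs were lower, down to -0.68 for Junb and Nr4a2. Nr4a1 and Nr4a3 had a correlation of 0.49 within groups and of -0.09 over all arrays. The mean over the 10 members was 9.62 to 9.70 in Gnaq/Gna11 ko arrays, 9.74 to 10.19 in Gna11 ko, 9.72 to 9.78 in Gna12/Gna13 ko and 9.76 to 10.06 in Gna12 ko arrays, and replicate 2 was the highest of both single knockout groups. In both groups replicate 2 is the array with low Eif2s3y, and the correlations within groups include that split. All these values describe the 12 arrays and were not tested.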
